A study of Mus musculus with 10 samples.

Results

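Integrins are cell surface receptors made of an alpha and a beta chain, and leukocytes use them to stop on vessel walls, to cross into tissue and to stay there. The transcripts of 9 integrin genes were followed in Tregs of the mouse, the regulatory CD4 T cells that depend on Foxp3 and hold immune responses in check: the alpha chains Itgae, Itga1, Itga4, Itga6 and Itgal and the beta chains Itgb1, Itgb2, Itgb3 and Itgb7. They were chosen by symbol out of the 23992 gene symbols measured, and where a symbol had several transcripts the one with the highest mean reads stood for it. The pairing of the chains decides what a cell binds. Itgal with Itgb2 forms LFA-1, which binds ICAM proteins. Itgae encodes the alpha chain CD103, which pairs with Itgb7 to bind E-cadherin on epithelium. CD103 is a mark of tissue-resident T cells and of many tissue Tregs. Itga4 pairs with Itgb7 for homing to gut through MAdCAM-1, or with Itgb1 to bind VCAM-1. Itga1 and Itga6 pair with Itgb1 to bind collagen and laminin, and Itgb3 pairs with Itgav to bind vitronectin and other matrix proteins.

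RNA was sequenced in 10 libraries of 4 groups. Natural Tregs of wild-type C57BL/6J spleen made up 2 groups. They were stimulated through the T cell receptor for 24 h by anti-CD3 and anti-CD28, either alone (TCR, 2 libraries) or together with the epithelial cytokine thymic stromal lymphopoietin (TCR + TSLP, 2 libraries). The other 2 groups were Tregs of the allergic lung of mice immunized with ovalbumin. The control group carried Foxp3YFP-Cre and is labelled wild-type (3 libraries), and the Crlf2-deleted group was Crlf2fl/fl Foxp3YFP-Cre, a conditional knock-out (3 libraries). Both lung groups thus express Cre from Foxp3, so deletion of Crlf2, a chain of the TSLP receptor, is limited to cells that express or have expressed Foxp3. Whether replicates are separate mice or cultures is not stated in the labels. The p-values below therefore cover the spread among these samples alone, and that spread may be technical.

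Reads assigned to genes were 27237312 to 51671903 per spleen library and 1439675 to 18349039 per lung library, control 2 being the smallest. Levels are given as normalised reads, that is reads brought to a common library size (CPM) after TMM correction for library composition, or as these per kb of transcript where genes are set beside each other. Crlf2 checked the labels of the lung groups: it stood at 115 ± 27.7 normalised reads in the control and 6.44 ± 2.76 in the Crlf2-deleted libraries (SD, n = 3 each). The summed T cell and Treg markers lay between 2854 and 4897 in control lung and between 4983 and 5491 in Crlf2-deleted lung, with the lowest value in control 3. Control 3 also stood apart in markers of other cells. Its 7 macrophage and monocyte genes summed to 4102 normalised reads, against 288 and 360 in the other controls and 939 to 968 in the Crlf2-deleted libraries. Its 5 red cell genes summed to 105558, against at most 4263 in any other library. Epithelial markers were high in all lung libraries, at 15513 to 75011 in control and 2181 to 17122 in Crlf2-deleted libraries, and at most 31.7 in spleen. Each lung result is therefore also given without control 3 where that changes the call or the value by over 1.5 times. In bulk RNA, fewer cells of a type and less RNA per cell cannot be told apart.

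Stimulated spleen Tregs expressed mainly Itgb7 and the LFA-1 chains Itgb2 and Itgal. Per kb, with all 10 libraries scaled together, the level in the TCR group was highest for Itgb7 (80.5 ± 2.42 normalised reads per kb, SD, n = 2 here and in the next sentences), then Itgb2 (68.7 ± 9.02) and Itgal (55.9 ± 4.10). Itgb3 (25.3 ± 3.20) and Itgb1 (22.6 ± 0.557) followed, and this pair did not differ beyond its spread. Itga6 stood at 5.0 ± 0.434, Itga4 at 1.62 ± 0.125 and Itgae at 1.19 ± 0.0642. Itga1 was close to absent, with 3 and 5 reads in the TCR and 0 and 4 in the TCR + TSLP libraries, and was not tested there.

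**Figure D1:**
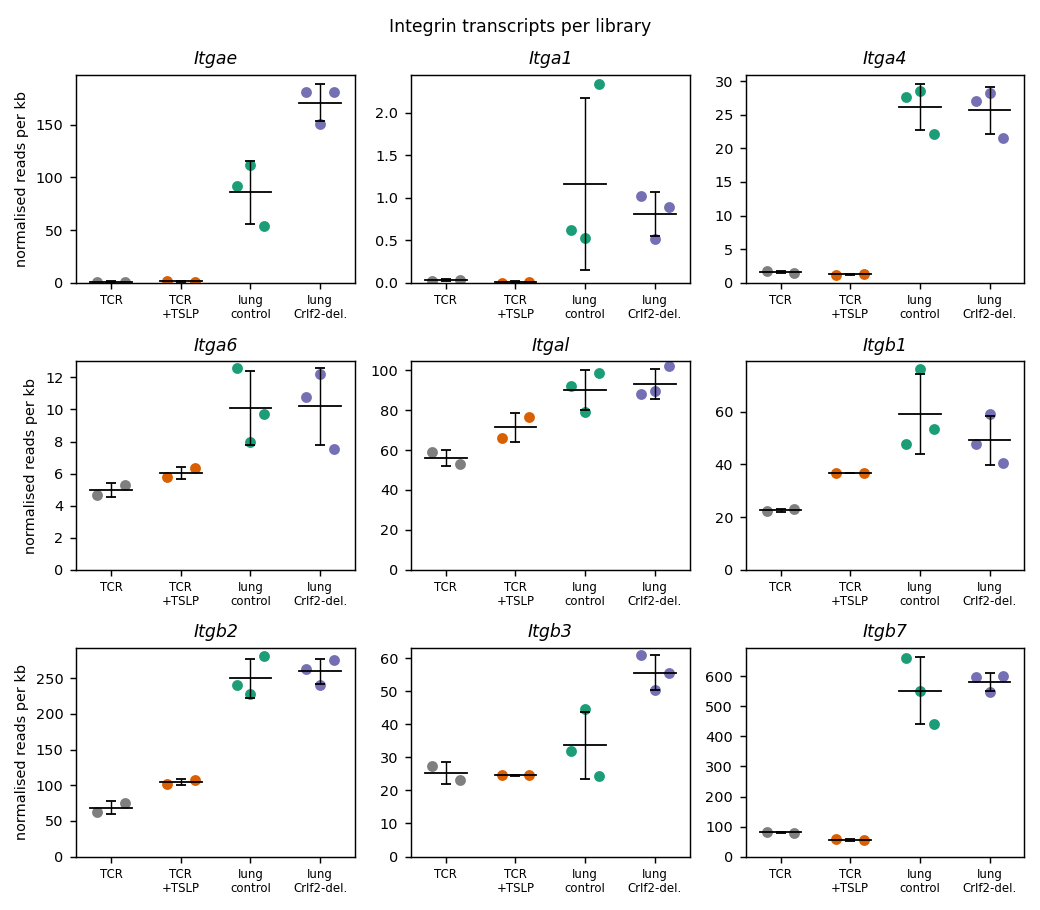
Level of each of the 9 integrin genes in every library, in normalised reads per kb of transcript on a linear axis that starts at 0 and differs between panels. Points are libraries, horizontal lines group means and bars the SD (n = 2 for the spleen groups TCR and TCR + TSLP, n = 3 for the lung groups). Itgb1 and Itgb2 lie higher and Itgb7 lower with TSLP, and Itgae and Itgb3 lie higher in all 3 Crlf2-deleted libraries than in any control.

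The comparison of TCR + TSLP with TCR asks what the cytokine adds to stimulation through the receptor. Itgb1, Itgb2 and Itgal were higher with TSLP, and Itgb7 and Itga4 were lower. These were 5 of the 8 integrin genes tested, of which 3 were higher and 2 lower, at an adjusted p under 0.05 (edgeR quasi-likelihood test, adjusted over all 13214 genes tested). Of all genes tested, 45.8% passed in this comparison, 22.7% higher and 23.1% lower, so the integrin count is read against a broad change. With library totals as the only scaling 5059 calls were higher and 2000 lower, and on RPKM 5567 and 1305, against 2999 and 3051 here. The integrin calls were then 4 higher and 1 lower (38.3% of all genes were higher), and 4 higher and 0 lower (42.1%). For 6 of the 8 genes the groups did not overlap, against 75.4% of all genes tested. The median log2 fold change was 0.12 over the 8 integrin genes and 0.01 over all genes tested. Markers of several other cell types were also lower with TSLP. The 5 B cell genes summed to 113 and 120 normalised reads in the TCR and 77.7 and 77.9 in the TCR + TSLP libraries, and 4 of them passed as lower. The 7 CD8 T cell and NK genes went from 59.8 and 63.8 to 43.4 and 44.5 (2 of 6 tested passed as lower), and the 5 neutrophil genes from 20.8 and 53.1 to 12.1 and 12.9 (2 of 2). Macrophage and monocyte genes stood at 5.38 and 4.84 without and 4.84 and 4.87 with TSLP. Fibroblast and smooth muscle genes went from 4.33 and 4.58 to 4.75 and 4.85. Of the 11 T cell and Treg genes, 2 passed as higher and 3 as lower. The part of other cells in the results below was not tested.

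Itgb1, the shared beta chain of the matrix-binding integrins, had 86.0 and 88.4 normalised reads in the TCR libraries and 138 and 137 with TSLP. Both TSLP libraries lay well above both TCR libraries, by 1.58-fold (log2 fold change 0.66, SE 0.08, adjusted p = 0.000745, edgeR). Itgb2, the beta chain of the leukocyte-specific integrins (chromosome 10, 77530329 to 77565708, plus strand, mm10), stood at 181 ± 22.8 normalised reads without TSLP (SD, n = 2, the lower library at 165), and at 261 and 272 with it. Its groups did not overlap either, and the level was 1.47-fold higher (log2 0.56, SE 0.10, adjusted p = 0.00385, edgeR). Itgal, the alpha chain that Itgb2 pairs with in LFA-1, rose less, from 283 and 254 to 310 and 355 (log2 0.31, SE 0.10, adjusted p = 0.0411, edgeR). Its lower TSLP library stood only a little above its higher TCR library. The call on Itgal was lost without TSLP library 1 or 2 (adjusted p = 0.0698 and 0.425) and when a trend on transcript length was removed (log2 0.18, adjusted p = 0.115).

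Itgb7, the beta chain of the mucosal integrins, went the other way. It had 203 and 193 normalised reads in the TCR libraries and 138 and 128 with TSLP, so both treated libraries were lower (0.673-fold, log2 -0.57, SE 0.09, adjusted p = 0.00157, edgeR). Itga4, which can pair with Itgb7 or Itgb1, had 15.5 and 13.8 normalised reads with TCR alone and 10.7 and 11.1 with TSLP. Its groups did not overlap, and the TSLP values were close to each other (log2 -0.42, SE 0.12, adjusted p = 0.0245, edgeR). Both calls were lost on another scaling. On the deposited RPKM values (reads per kb, scaled by the authors to a larger library total), all tested genes had a median log2 of 0.20 after adding 1. After adding 0.1 the median was 0.33, so the shift depended on the value added. On that scale, after adding 1, Itgb7 stood at a log2 of -0.19 (limma, adjusted p = 0.231) and Itga4 at -0.02 (adjusted p = 0.814). Neither passed in 1 fit of all 4 groups (adjusted p = 0.0656 for Itgb7 and 0.227 for Itga4, edgeR). Itga4 also lost its call without TSLP library 1 or 2 (adjusted p = 0.211 and 0.172) and with DESeq2 (adjusted p = 0.086).

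**Figure D2:**
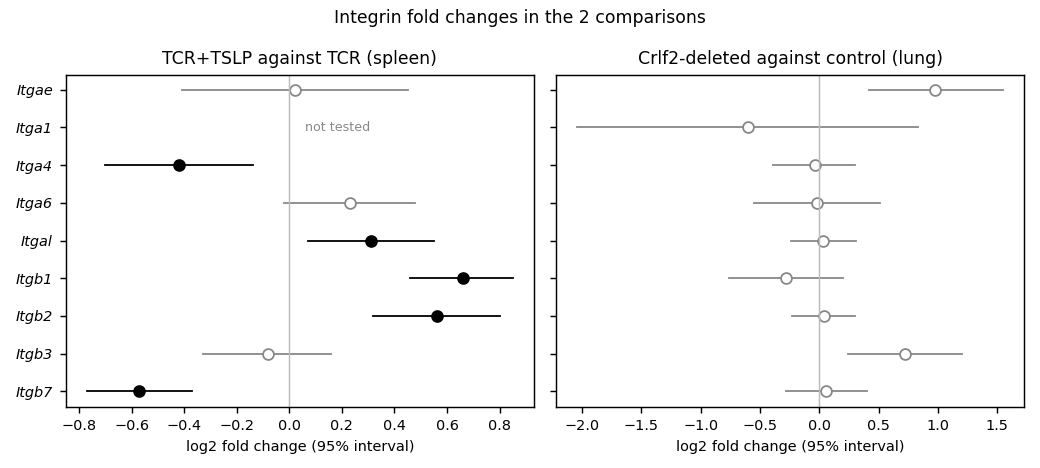
Log2 fold changes of the integrin genes with their 95% intervals, TCR + TSLP against TCR on the left and Crlf2-deleted against control lung on the right, on axes of different range. Filled black points passed an adjusted p of 0.05 in the edgeR test and open grey points did not. On the left 3 genes lie above and 2 below zero as filled points, and on the right the intervals of Itgae and Itgb3 lie above zero but no gene passed.

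Ratios between integrin genes of the same library need no scaling between libraries. Itgb1 stood at 27.1% and 29.2% of Itgb7 per kb in the TCR libraries and at 63.8% and 68.1% with TSLP, a ratio 2.34-fold higher. Itgb2 stood at 75.9% and 95.4% of Itgb7 with TCR alone and at 187% ± 15.2 with TSLP (SD, n = 2), a ratio 2.19-fold higher. The order of the chains thus turned: Itgb7 was the higher of this pair in both TCR libraries and Itgb2 in both TSLP libraries. Across all genes tested, the log2 fold change followed transcript length, with a median of -0.74 for 500 to 1000 bases and of 0.20 for 4000 to 8000. Itgb2 (2862 bases) and Itgb7 (2674 bases) both lie in the class of 2000 to 4000 bases, whose median was 0.10. Itgb1 (4194 bases) lies in the class of 4000 to 8000, and Itga4 (9832 bases) in that above 8000, whose median was 0.07. With length and GC trends removed, the log2 fold change was 0.41 for Itgb1, 0.55 for Itgb2, -0.44 for Itgb7 and -0.58 for Itga4. Before removal these were 0.66, 0.56, -0.57 and -0.42. Itga4 stood at 7.67% and 6.64% of Itgb1 without and 3.32% and 3.47% with TSLP. Against Itgb7, which fell alongside it, Itga4 stood at 2.07% and 1.94% without and 2.11% and 2.37% with TSLP. Itgal stood at 94.4% and 70.6% of Itgb2 without and 65.1% and 71.7% with TSLP, and these groups overlapped. An exact permutation test of 2 libraries against 2 cannot go below p = 0.333, so the ratios are given as values.

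**Figure D3:**
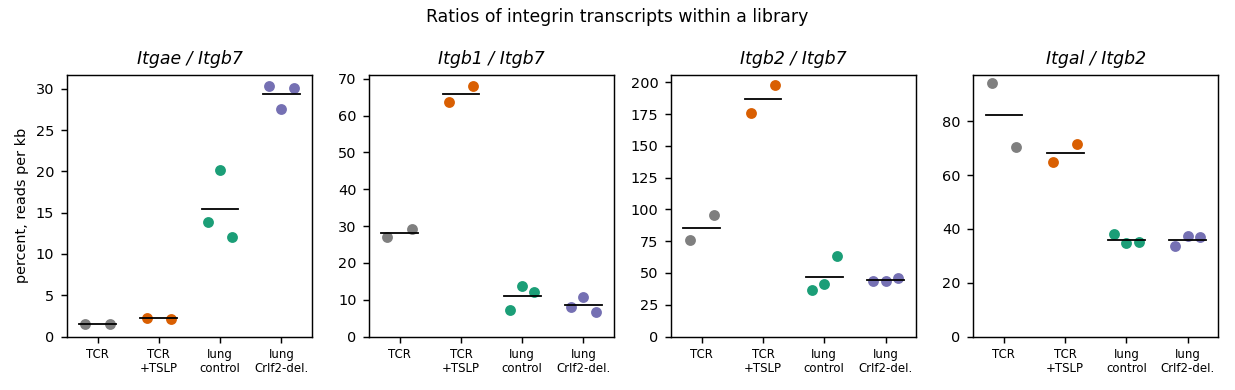
Ratio of one integrin transcript to another in the same library, in percent of reads per kb, for Itgae to Itgb7, Itgb1 to Itgb7, Itgb2 to Itgb7 and Itgal to Itgb2. Points are libraries and lines group means. Itgb1 and Itgb2 lie higher against Itgb7 with TSLP, and Itgae against Itgb7 is higher in all 3 Crlf2-deleted libraries (27.6% to 30.3%) than in the controls (12.1% to 20.2%).

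The other 3 tested genes did not pass with TSLP. Itga6, the laminin receptor alpha chain, had 26.0 and 29.2 normalised reads without and 31.1 and 33.8 with TSLP, which do not overlap (log2 0.23, 95% interval -0.02 to 0.48, adjusted p = 0.111, edgeR). It passed when libraries were scaled by their totals alone (log2 0.46, adjusted p = 0.00816) and on RPKM (log2 0.40, adjusted p = 0.0182, limma). Itgb3 had 147 and 122 without and 127 and 127 with TSLP, so that the TSLP values lay between the TCR values (log2 -0.08, 95% interval -0.33 to 0.16). Itgae was low in every culture, at 4.38 and 4.03 normalised reads without and 4.52 and 4.0 with TSLP. Its interval, from -0.41 to 0.45 in log2 around an estimate of 0.02, bounds the difference only loosely.

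Bases before the start site are shown for 3 of the genes that moved with TSLP, from the RefSeq promoter table on GRCm38.p6, which held 4 of the 9 genes. Each run is the 250 bases before the start, read 5′ to 3′ on the gene's strand. Itgb1, which rose, lies on the plus strand of chromosome 8 from 128685654 to 128733579, and its window is chr8:128685404-128685653. Itgb7, which fell, spans 102215994 to 102233405 of chromosome 15 on the minus strand, and its window, chr15:102231936-102232185, belongs to a start inside that span. Itga4, which also fell, lies on the plus strand of chromosome 2 from 79255426 to 79333114, with its window at chr2:79255176-79255425. Capitals mark matches, on either strand, to 5 motifs searched for: TTCNNNGAA (STAT), TGTGGT (RUNX), CAGAC (SMAD), GGGCGG (the Sp1 GC box) and CGGAAG (ETS).
Itgb1: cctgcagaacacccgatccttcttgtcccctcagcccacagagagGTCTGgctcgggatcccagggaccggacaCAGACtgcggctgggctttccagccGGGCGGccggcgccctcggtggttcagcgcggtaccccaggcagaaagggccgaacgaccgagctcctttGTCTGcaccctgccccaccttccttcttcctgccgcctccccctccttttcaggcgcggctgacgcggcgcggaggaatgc
Itgb7: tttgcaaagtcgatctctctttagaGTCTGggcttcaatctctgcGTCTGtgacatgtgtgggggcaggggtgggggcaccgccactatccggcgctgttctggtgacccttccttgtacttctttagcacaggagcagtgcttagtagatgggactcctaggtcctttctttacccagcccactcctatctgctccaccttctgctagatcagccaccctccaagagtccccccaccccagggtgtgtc
Itga4: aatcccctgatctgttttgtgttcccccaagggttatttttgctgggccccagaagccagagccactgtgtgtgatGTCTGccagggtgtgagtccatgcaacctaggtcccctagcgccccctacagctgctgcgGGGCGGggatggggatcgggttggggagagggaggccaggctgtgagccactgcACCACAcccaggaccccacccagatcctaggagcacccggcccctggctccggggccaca
The Itgb1 window held the SMAD motif 3 times and the GC box once, and the Itgb7 window held the SMAD motif 2 times. The Itga4 window held the SMAD motif, the GC box and the RUNX motif once each. Of 32851 promoter windows of this length, 42.2% held the SMAD motif, 32.7% the GC box and 14.0% the RUNX motif, so these matches are common. None of the 3 windows held TTCNNNGAA, which 7.02% of all windows did. The windows differ in base composition, with 68.0% G or C in Itgb1, 56.0% in Itgb7 and 64.0% in Itga4. The median over all promoters was 52.4%.

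In the lung the comparison asks how Tregs differ when they lack Crlf2. Itgae, the gene of CD103, and Itgb3 were higher in every Crlf2-deleted library than in any control, but neither passed the adjusted threshold. None of the 9 integrin genes passed (edgeR, 2 at an unadjusted p under 0.05, namely Itgae and Itgb3), where 1.79% of all 12717 genes tested did. With DESeq2 both passed, where 6.88% of all genes did, and with limma on RPKM both passed, where 5.12% were called higher (4.69% with a pseudocount of 0.1). For 2 of the 9 genes the groups did not overlap, against 22.0% of all genes tested, and both were higher, against 10.4%. The calls over all genes were 98 higher and 129 lower, but 137 and 57 with library totals as the only scaling and 651 and 81 on RPKM.

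Itgae, which spans 73090505 to 73147449 of chromosome 11 (plus strand, mm10), had 378, 463 and 222 normalised reads in the control libraries and 741, 616 and 737 in the Crlf2-deleted ones. The lowest deleted library stood above the highest control, and the means were 354 ± 123 and 698 ± 70.9 (SD, n = 3 each), a log2 difference of 0.98 (SE 0.24, 95% interval 0.42 to 1.55, adjusted p = 0.0984, edgeR). Without control 3, which had the lowest Itgae and the highest macrophage and red cell markers, the log2 difference was 0.74 and passed (adjusted p = 0.0221, edgeR). It passed in 5 of 19 alternatives, with log2 differences between 0.74 and 1.46. These were DESeq2 (log2 1.0, adjusted p = 0.000979), limma on RPKM with either pseudocount, 1 fit of all 4 groups (adjusted p = 0.0205, edgeR, where 2.62% of all genes were called higher) and the fit without control 3 (1.95%). Set against the 11 T cell and Treg marker genes of the same library, Itgae came to 7.23%, 8.76% and 7.20% of their summed reads in the controls and 13.7%, 11.6% and 12.7% in the Crlf2-deleted libraries. On this scale control 3 was close to control 1, and the means differed 1.64-fold without overlap. This scale was added after the data were seen, and 2.37% of all genes tested lay higher without overlap on it.

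Itgb3, on the same chromosome and strand from 104608000 to 104670476, had 376, 309 and 339 normalised reads in the Crlf2-deleted libraries, and from 151 in control 3 to 278 in control 2 among the controls. Control 3 was again the lowest and the groups did not overlap, with means of 209 ± 64.1 and 342 ± 33.6 (log2 0.72, SE 0.21, 95% interval 0.24 to 1.20, adjusted p = 0.142, edgeR). Without control 3 the log2 difference was 0.54 and did not pass. Itgb3 passed with DESeq2 (log2 0.74, adjusted p = 0.0152), limma on RPKM (log2 1.05, adjusted p = 0.0263) and 1 fit of all 4 groups (adjusted p = 0.0408, edgeR). Against the T cell markers it came to 3.79%, 5.25% and 4.90% in the controls and 6.97%, 5.84% and 5.83% in the deleted libraries, again without overlap (1.34-fold). Itgb3 is also a platelet integrin chain with Itga2b. The summed 9 platelet and megakaryocyte markers ranged from 3.80 to 20.9 normalised reads in control and from 2.55 to 6.01 in Crlf2-deleted lung. The highest sum was that of control 3, where Itga2b itself gave 13.4. Single markers went either way. Pf4 stood at 0, 0.633 and 2.37 in control and 0.639, 2.03 and 3.25 in Crlf2-deleted libraries. Gp9 stood at 4.11, 0.633 and 0 against 0.0912, 0.0752 and 0.542. The part of platelets in the Itgb3 values was not tested.

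The other 7 integrin genes overlapped between the lung groups. Itgb7, the most abundant, had 1901, 1598 and 1272 normalised reads in control and 1708, 1559 and 1707 in Crlf2-deleted lung, with all deleted values inside the control range (log2 0.06, 95% interval -0.28 to 0.40). Itgae against its partner Itgb7 therefore separated the groups, at 13.9%, 20.2% and 12.1% of the Itgb7 level per kb in control and 30.3%, 27.6% and 30.1% in Crlf2-deleted libraries. The exact permutation test of this ratio gave the smallest p that 3 against 3 allows, 0.1 (two-sided), and this ratio was looked at after the levels had been seen.

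The LFA-1 chains were close between the lung groups, Itgal at a log2 difference of 0.03 (95% interval -0.24 to 0.31) and Itgb2 at 0.04 (-0.23 to 0.30). Itgal stood at 38.2%, 34.7% and 35.1% of Itgb2 per kb in control and 33.5%, 37.3% and 37.0% in Crlf2-deleted lung, so the 2 chains of LFA-1 kept to a narrow band in all 6 lung libraries. Itga4 (log2 -0.04, interval -0.39 to 0.30) and Itga6 (log2 -0.02, interval -0.55 to 0.51) also overlapped. Relative to the T cell markers, Itga4 was lower without overlap, at 5.60%, 5.72% and 7.63% in control against 5.24%, 5.58% and 3.86%, where 20.8% of all genes tested were lower in this way. Itgb1 had 214, 346 and 243 normalised reads in control and 213, 264 and 181 in Crlf2-deleted lung (log2 -0.28, interval -0.76 to 0.20). Itga1, the collagen receptor alpha chain, had only 5 to 159 reads per lung library. Control 3 carried most of them in its group, at 15 normalised reads against 4.01 and 3.42 in the other controls and 3.28 to 6.52 in the Crlf2-deleted libraries. The log2 difference of Itga1 was -0.60 with control 3 and 0.45 without it, and neither passed.

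**Figure D4:**
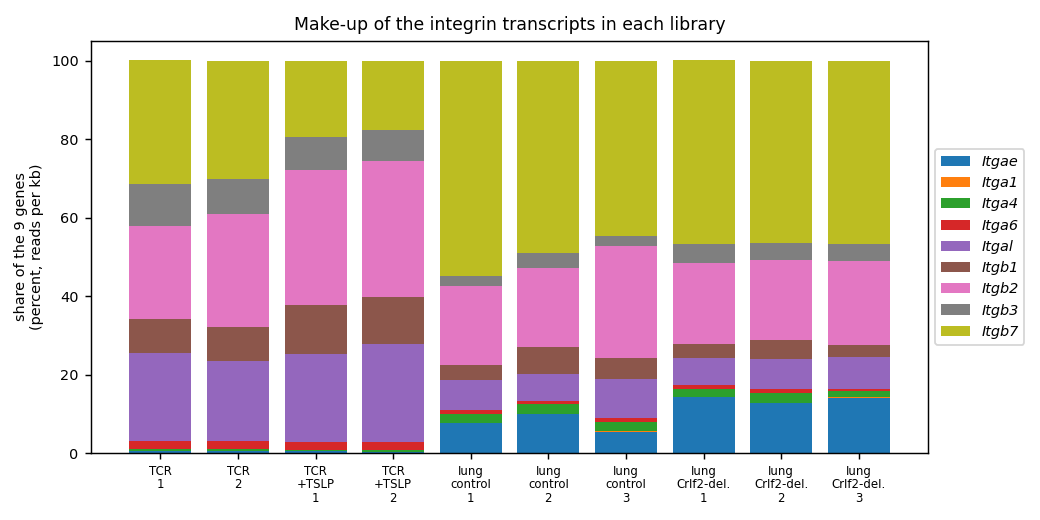
Make-up of the 9 integrin transcripts in each library, as the share of each gene in their summed reads per kb, in percent. Each bar is a library and each colour a gene. Itgb7 takes a smaller and Itgb2 and Itgb1 a larger share with TSLP, and Itgae takes 12.8% to 14.2% in the Crlf2-deleted lung libraries against 5.43% to 9.90% in the controls.

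The make-up of the integrin transcripts sums these differences. Of the summed level per kb of the 9 genes, Itgb7 held 30.8% ± 0.942 in TCR and 18.5% ± 1.41 in TCR + TSLP libraries (SD, n = 2 each). Itgb2 held 26.3% ± 3.45 and 34.6% ± 0.182, and Itgb1 8.67% ± 0.210 and 12.2% ± 0.358. In the lung, Itgb7 held 49.5% ± 5.08 in control and 46.7% ± 0.221 in Crlf2-deleted libraries (n = 3 each). The share of Itgae was 7.64% ± 2.23 and 13.7% ± 0.769, and that of Itgb3 3.01% ± 0.808 and 4.45% ± 0.285. Shares sum to a fixed total, so a higher share of one gene lowers the others.

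Several integrin genes stood at other levels in control lung than in stimulated spleen Tregs. Tissue, culture, stimulation, immunization and possibly the library kit differ together here and cannot be told apart, so the values are a description with no test. No share over all genes stands beside the overlaps here, so non-overlap is not read as particular to these genes. The level of Itgae was 0.406 ± 0.00911 RPKM in the TCR group and 15.3 ± 3.76 in control lung, 37.7-fold higher. Itga4 was 8.64-fold higher (0.550 ± 0.00055 and 4.75 ± 0.216 RPKM), and Itgb7 3.67-fold (27.4 ± 1.27 and 101 ± 16.3 RPKM). Itga1 was 22.9-fold higher, from 3 and 5 reads in the TCR libraries, but 10.0-fold higher without control 3. Itgb2 and Itgb1 were 1.97-fold and 1.39-fold higher without overlap. Itga6 and Itgal overlapped on RPKM, at 1.09 and 0.876 of the TCR level. In normalised reads per kb they were 2.02-fold and 1.61-fold higher without overlap. Itgb3 was lower on RPKM, at 0.702 of the TCR level and without overlap, but at 1.33 times it, with overlap, in normalised reads per kb. RPKM lowers the lung values, because genes took 14.9% to 23.6% of the RPKM library total in lung and 37.8% to 44.5% in spleen. In normalised reads per kb the ratio was 71.9 for Itgae, 16.2 for Itga4 and 6.86 for Itgb7.

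The order of the genes in control lung was Itgb7 (552 ± 111 normalised reads per kb, n = 3), Itgb2 (250 ± 28.0), Itgal (89.9 ± 9.98), Itgae (85.7 ± 29.6), Itgb1 (59.2 ± 15.2), Itgb3 (33.6 ± 10.2), Itga4 (26.1 ± 3.46), Itga6 (10.1 ± 2.33) and Itga1 (1.16 ± 1.01). Itgal, Itgae and Itgb1 overlapped along this order, and so did Itgb3 with Itga4. In Crlf2-deleted lung Itgae (171 ± 17.4) stood above Itgal (93.2 ± 7.51) in every library, and Itgb3 (55.6 ± 5.37) and Itgb1 (49.1 ± 9.38) overlapped.

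Other integrin chains were mostly low. Of 19 other alpha and beta chain genes, 11 were tested in spleen and 12 in lung, and the highest value of any of them in a library was 3.92 RPKM, for Itgax in control 3. Itgax and Itgam, alpha chains of myeloid cells, stood at 3.92 and 3.20 RPKM there and at most at 0.673 and 0.457 elsewhere. In controls 1 and 2 Itgax stood at 0.112 and 0.0774 RPKM, below the 0.407 to 0.673 of the Crlf2-deleted libraries. Itgam stood at 0.278 and 0.266, below 0.382 to 0.457. The direction of both between the lung groups thus depended on control 3 on this scale. With TSLP, Itgav, the usual partner of Itgb3, rose from 19.3 ± 3.07 to 26.1 ± 1.22 normalised reads (log2 0.44, adjusted p = 0.0246, edgeR). That call was lost without TSLP library 1 or 2 (adjusted p = 0.0635 and 0.163). Itgb4 passed as lower at a very low level, 1.80 ± 1.07 against 0.405 ± 0.146 normalised reads (log2 -2.19, adjusted p = 0.00983, edgeR). The log2 difference of Itgb4 was -1.41 without TCR library 1, and the call was lost on RPKM (log2 -0.10 after adding 1, adjusted p = 0.0778, limma) and in 1 fit of all 4 groups (adjusted p = 0.183, edgeR). The other 9 (Itga2b, Itga3, Itga5, Itga7, Itga9, Itga10, Itgax, Itgb5 and Itgb8) lay between a log2 of -0.27 and 0.45 and did not pass. In the lung Itgb8, a chain that with Itgav activates latent TGF-beta, rose from 0.160, 0.268 and 0.223 RPKM to 1.37, 1.38 and 1.46. All 3 deleted libraries were several times higher (log2 2.33, SE 0.35, adjusted p = 0.0233, edgeR on counts), though the call was lost without any of 5 of the 6 libraries, at adjusted p of 0.0504 to 0.171. The other 11 chains tested in lung (Itga2, Itga2b, Itga3, Itga5, Itga7, Itgad, Itgam, Itgav, Itgax, Itgb4 and Itgb5) did not pass, and Itgav there stood at 71.8 ± 8.04 and 80.9 ± 10.4.

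Genes that switch integrins on from inside the cell were called with TSLP at about the rate of all genes. Of 31 tested, 10 rose and 4 fell, which is 45.2% against 45.8% of all genes, with a median log2 of 0.14. Mob1a, an adaptor of the Mst kinases, rose (log2 1.48), as did Rasgrp1, an activator of Ras (log2 0.53). Skap1, an adaptor that links the T cell receptor to LFA-1 activation, fell (log2 -0.65), and so did Rasgrp2, an activator of Rap1 (log2 -0.71). Both of these calls were lost on RPKM (log2 -0.27 and -0.26, adjusted p = 0.133 and 0.0771, limma). Of 35 tested genes of the adhesion complex below the integrin tails, 14 rose and 2 fell (45.7%, median log2 0.23). By direction, 22.7% of all genes rose and 23.1% fell. Vasp, which promotes actin filament growth (log2 0.58), and the adaptor Crkl (log2 0.66) rose, and Rac2 (log2 -0.25) and Actn4 (log2 -0.27), a GTPase and an actin crosslinker, fell. The signs of Rac2 and Actn4 turned on RPKM (log2 0.12 and 0.10). None of the 30 and 35 genes of these lists tested in lung passed.

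Among integrin ligands and counter-receptors, 2 of 16 tested rose and 2 fell with TSLP (25.0%). Thbs1 rose from a low level, 0.433 ± 0.0646 to 1.67 ± 0.665 normalised reads (log2 1.96), and the laminin chain Lamc1 rose (log2 0.42). The call on Thbs1 was lost without TSLP library 2 (log2 1.47, adjusted p = 0.17, edgeR), and that on Lamc1 without TSLP library 1 or 2 (adjusted p = 0.0601 and 0.147). Icam2, a ligand of LFA-1, fell (log2 -0.53), and so did Mfge8 (log2 -0.39), a ligand of Itgav integrins. Both falls were lost on RPKM (log2 -0.15 and -0.01, adjusted p = 0.367 and 0.915, limma) and with a length trend removed (log2 -0.13 and -0.34, adjusted p = 0.268 and 0.0565, edgeR). In the lung 1 of 17 passed: Mfge8 rose from 40.5 ± 5.18 to 80.9 ± 9.49 normalised reads (log2 1.01, SE 0.17, adjusted p = 0.0327, edgeR). Of 29 tested tetraspanins and other adhesion receptors, 10 rose and 4 fell with TSLP (48.3%), among them Cd53 (log2 1.24) and Cd84 (log2 0.50) higher and Cd2 (log2 -0.50) and Cd96 (log2 -0.47) lower. On RPKM Cd2 stood at a log2 of -0.13 and Cd96 at -0.08, and neither passed (adjusted p = 0.444 and 0.566, limma). Cd2 also lost its call with the length trend removed (log2 -0.10, adjusted p = 0.282, edgeR), and Cd84 without TSLP library 2 (adjusted p = 0.0719). The lung call on Mfge8 was lost without any of 5 of the 6 lung libraries, control 3 being the exception (adjusted p of 0.0564 to 0.192, edgeR).

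Transcription factors and receptors named in textbooks for Itgae, Itgb7 and tissue residence changed with TSLP in 11 of 22 tested, 10 higher and 1 lower (50.0%, against 45.8% of all genes). By direction, 22.7% of all genes were higher and 23.1% lower. The median log2 was 0.32 over this list and 0.01 over all genes. Cbfb, the partner subunit of the Runx factors, rose (log2 0.64), Smad3, a mediator of TGF-beta signals, rose (log2 0.73), and Klf2, a factor of circulating T cells, fell (log2 -0.67). The call on Klf2 was lost on RPKM (log2 -0.28, adjusted p = 0.142, limma) and in 1 fit of all 4 groups (adjusted p = 0.256, edgeR). The call on Cbfb was also lost in the fit of all 4 groups (adjusted p = 0.188, edgeR), while Smad3 kept its call there (adjusted p = 0.0129, edgeR). Itgae itself had 4.20 normalised reads on average without and 4.26 with TSLP in the same cultures. None of the 23 tested in lung passed (edgeR), where the list had a median log2 of -0.16 against -0.04 for all genes.

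The genes most like each integrin gene over the 10 libraries, after the mean of each tissue was subtracted, are given as a description. Itgae was most like Angptl2 (Pearson r = 0.988) among 4186 genes compared, and Itgb3 most like Gata3 and Bmp7 (both 0.962). Itgb1 was closest to Kpna4 (0.974) and Jak2 (0.961), Itgb2 to Nck1 (0.973) and Tmod3 (0.971), and Itgb7 to Tbcc (0.976) and Mrpl12 (0.975). Itgal was closest to Stat6 (0.929) and Dnm2 (0.905), Itga4 to Pabpn1 (0.912) and Nudt14 (0.890), Itga6 to Pprc1 (0.922) and Tomm70a (0.910), and Itga1 to Ecd (0.919) and Gpx1 (0.914). Within the family, Itgae and Itgb3 ran together (r = 0.971), as did Itgal and Itgb2 (0.782), while Itga4 ran against Itgb2 (-0.874) and Itgb7 against Itgb2 (-0.786). The 10 libraries share groups and scaling, so these values mostly order genes by the group differences described above.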

How the data were processed

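The authors deposited, per library, whole read counts per RefSeq transcript and RPKM, per the file headers. Tools listed in the submitters' processing notes are TopHat2 2.2.1, Bowtie2 2.2.6, bedtools 2.25.0, SAMtools 0.1.8 and edgeR, with the build mm10. The sources used here do not give what each did or how strand and multimapping reads were counted. Per the labels' protocols, libraries of stimulated Tregs came from a stranded total RNA kit with ribosomal depletion; the kit for lung Tregs is not stated separately.

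The deposited counts were tested within each comparison (edgeR 4.0.16, R 4.3.3, quasi-likelihood test, TMM, filterByExpr with a minimum count of 10, robust, two-sided) and Benjamini-Hochberg adjustment over all genes tested at 0.05. The SE is the log2 fold change divided by the root of F, and intervals are at 95%. Alternatives used DESeq2 1.42.0, limma 3.58.1 on log2(RPKM + 1) or log2(RPKM + 0.1), other scalings, filters, transcripts, a removed loess trend (span 0.3) on length or length and GC, and each library left out. Replicates differed by more than sampling noise.

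The integrin genes and gene lists were chosen with earlier results of these data known. Named list genes are the 2 higher and 2 lower genes of lowest p among those past the threshold, and every other integrin chain tested. Some results that these rules named are not reported here. Likeness used genes with a mean of at least 5 RPKM and a prior count of 2.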

Additional observations from a re-analysis of the deposited data

How the results depend on the processing

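Itgb2 kept its direction and call in all 18 alternatives of the TSLP comparison, Itgb1 in all but 1 fit of all 4 groups (adjusted p = 0.0718, edgeR). The count of 5 integrin genes became 3 with the replicate number as a block and a length trend removed, 1 with all 4 groups in 1 fit, and 3 to 7 with a library left out. The count over all genes, 6050, became 1356 with all 4 groups and 3212 to 8624 with a library left out. In lung, 2 integrin genes passed with DESeq2, limma on RPKM (both pseudocounts) and all 4 groups, and 0 to 1 with a library left out. There the 227 calls over all genes became 942 with DESeq2, 732 and 674 with limma on RPKM (pseudocounts 1 and 0.1), 873 with all 4 groups, 96 and 94 with length or length and GC trends removed, and 4 to 532 with a library left out. Whether the replicate numbers pair the samples is not stated in the labels. Same-number correlations were -0.125 in spleen and -0.148 to 0.084 in lung, and unlike numbers gave -0.146 to 0.186 in lung. With 2 libraries per group, centring makes every spleen correlation the same size (-0.125 or 0.125), so spleen cannot decide the pairing. The block gave 5 integrin genes of 5818 calls in spleen and 0 of 121 in lung, and with the length trend 3 of 5038 and 0 of 115. The crossed numbers, added after the data were seen, gave 5 of 7106 in spleen.

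Signs turned only for small or unpassed log2 values in these alternatives, except Rac2, Actn4 and Crlf2. With TSLP, Itgae went to -0.09 (length trend, with or without block) and -0.07 (length and GC), and ranged from -0.07 to 0.11 with a library left out. Itgb3 went to 0.27 and 0.29 on RPKM (pseudocounts 1 and 0.1) and 0.15 with library totals, and ranged from -0.19 to 0.06. Rac2 and Actn4 went to 0.12 and 0.10 on RPKM with either pseudocount, and Crlf2 to 0.12 with length and GC removed. In lung, on RPKM with pseudocounts 1 and 0.1, Itga4 went to 0.32 and 0.37, Itga6 to 0.28 and 0.40, Itgb1 to 0.14 and 0.15, and Itga1 to 0.04 with the smaller. With library totals Itga4 went to 0.13 and Itga6 to 0.17, with the block and length trend both to 0.01, with length alone Itga6 to 0.01, and with length and GC to 0.08 and 0.01. With a lung library left out, Itga4 ranged from -0.15 to 0.07, Itga6 from -0.16 to 0.17, Itgal from -0.03 to 0.11, Itgb2 from -0.01 to 0.13, Itgb7 from -0.07 to 0.22 and Itga1 from -0.95 to 0.45. The ratio of control lung to TCR was 1.33 for Itgb3 and 1.61 for Itgal in normalised reads per kb, against 0.702 and 0.876 on RPKM. Of the other integrin chains that did not pass, 5 of 9 in spleen and 8 of 11 in lung changed sign in some alternative. The causes were not tested. Depth limits Itga1 and control 2 most.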

Other observations

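Itgae is listed with 2 transcripts. The files counted fewer reads on the second, NM_172944, than on NM_008399, which was used above, in every library. Without TSLP the second had 68.1% and 51.5% of the reads of the first, and with TSLP 72.8% and 77.4%, from 101 to 226 reads on the first. These percentages did not overlap, so the TSLP result of Itgae above holds for NM_008399 alone. The second had 77 and 52 reads without and 123 and 175 with TSLP, before any scaling, and was not tested. In lung it had 93.5%, 92.0% and 92.1% in the controls and 93.7%, 94.1% and 93.5% in the Crlf2-deleted libraries. The spleen and lung values did not overlap, while those of both lung groups lay within a narrow range. How reads on a stretch shared by both transcripts were counted is not given, and the source of the difference was not tested.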
